A study of Mus musculus with 6 samples.

Results

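Hair follicle stem cells are marked by a small set of receptors, surface proteins and transcription factors, and 10 such genes were examined by symbol: Lgr5, Lgr6, Cd34, Sox9, Lhx2, Nfatc1, Tcf7l1, Lrig1, Plet1 and Gata6. They are 10 of 38924 genes in the count table, and all 10 were among the 15525 genes with enough reads to be tested. RNA was sequenced from mouse epidermal cells purified for CD49f, the integrin alpha 6 chain found on basal keratinocytes and on the outer cells of the follicle. The 6 libraries, from cells that are flox/flox for Rnaseh2b in both groups, fell into 3 with the genotype K14-Cre+ (Cre-positive) and 3 with K14-Cre- (Cre-negative). K14-Cre is a recombinase driven by the keratin 14 promoter, so deletion is directed to keratinocytes, those of the follicle included, and not to other cell types in the preparation. Age and sex of the animals, and whether a library came from 1 animal or a pool, are not stated in the labels. The comparison asks how these cells differ when Rnaseh2b, a subunit gene of the enzyme that removes ribonucleotides from DNA, is deleted. Presence of Cre and loss of Rnaseh2b go together in these libraries and cannot be told apart.

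The hair follicle renews itself from stem cells in the bulge, a part of the outer root sheath, and from separate pools above it in the isthmus and the junctional zone beside the sebaceous gland. Bulge cells are held quiescent between hair cycles and are known for CD34, SOX9, LHX2, NFATC1 and TCF7L1, while LGR5 marks the lower bulge and hair germ that start a new hair. LGR6, PLET1, LRIG1 and GATA6 mark the isthmus, the junctional zone and the sebaceous duct, whose cells feed the upper follicle, the gland and, after wounding, the epidermis between follicles.

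RefSeq promoter windows (GRCm38.p6) were at hand for 6 of the 10 genes, and 3 are shown because their genes gave the clearest contrast in the comparison: Lrig1, whose groups did not overlap, and Lgr6 and Plet1, whose groups did. The overlap of Lgr6 did not hold when libraries were scaled by total count. Each sequence ends before the first base of any annotated exon and is written 5′ to 3′ on the strand of its gene. Capitals mark a motif match.
Lrig1, chr6:94700159-94700395, minus strand: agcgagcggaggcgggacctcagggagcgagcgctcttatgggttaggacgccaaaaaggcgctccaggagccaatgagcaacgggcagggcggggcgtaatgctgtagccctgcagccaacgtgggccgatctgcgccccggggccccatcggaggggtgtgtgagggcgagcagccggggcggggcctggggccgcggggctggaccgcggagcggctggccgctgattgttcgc
Lgr6, chr1:135105277-135105526, minus strand: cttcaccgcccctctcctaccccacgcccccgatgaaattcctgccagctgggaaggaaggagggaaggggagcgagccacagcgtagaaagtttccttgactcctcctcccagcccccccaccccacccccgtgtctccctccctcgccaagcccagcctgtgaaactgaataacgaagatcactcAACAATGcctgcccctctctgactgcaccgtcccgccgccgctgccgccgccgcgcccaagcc
Plet1, chr9:50494275-50494524, plus strand: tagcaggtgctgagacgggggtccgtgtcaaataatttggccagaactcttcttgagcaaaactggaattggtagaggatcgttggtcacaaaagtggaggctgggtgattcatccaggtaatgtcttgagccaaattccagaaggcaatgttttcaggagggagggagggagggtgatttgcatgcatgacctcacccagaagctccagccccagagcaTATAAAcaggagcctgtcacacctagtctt
The 250 bases before each RefSeq start were searched on both strands for the short letters that 6 kinds of factor are known to favour. CTTTGAT stands for TCF/LEF proteins and occurs in 3.21% of all 32851 windows of that length. AACAATG stands for SOX proteins (3.29% of all windows) and TAATTA for LIM homeodomain proteins (4.84%). GATAAG stands for GATA factors (6.55%) and GGAAAA for NFAT (20.4%). TATAAA, the TATA box (12.4%), was added after the sequences had been seen. In Lgr6 the window held the SOX letters, 63 bases before the start. In Plet1 it held TATAAA, 30 bases before the start. In Lrig1 it held none of these letters, with a GC content of 71.6% and 26 CG pairs, against 65.2% and 16 for Lgr6 and 50.0% and 3 for Plet1. The median over all windows was 52.4% GC and 6 CG pairs. Such matches describe letters and do not show that a factor binds.

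The libraries held between 22948779 and 31718094 counts. Rnaseh2b itself had 172, 90 and 69 counts in Cre-positive replicates 1, 2 and 3 against 543, 504 and 570 in the Cre-negative ones, and fell by 2.34 on the log2 scale (adjusted p = 0.0102 by edgeR), as the labels have it. Keratinocyte markers (Krt5, Krt14, Itga6, Trp63, Krt15 and Epcam, 6 of 6 detected in every library) summed to between 14866 and 17572 CPM, which are counts divided by the scaled library total. Cre-positive replicate 3 stood apart: the chi-square per degree of freedom between it and the others of its group was 70.4 and 48.4, against 9.11 to 14.7 for all other pairs within a group. By Xist and Y-linked genes it was the 1 female library of its group, beside 2 males, and the Cre-negative group held 2 females and 1 male. Stromal RNA also differed: 11 fibroblast and dermal papilla markers summed to 1906 CPM in Cre-positive replicate 1 and 1308 in Cre-negative replicate 3, and to between 507 and 681 in the other libraries. Melanocyte markers, 7 of 7 detected, summed to between 650 and 755 CPM with Cre and between 366 and 426 without it. Of these 7, 6 rose by edgeR, as did 0.406% of all tested genes: Dct, Tyrp1, Mlana, Kit, Pmel and Tyr. Of 8 tested markers of blood-derived and mast cells 1 rose, Lyz2 (log2 fold change 1.33, adjusted p = 0.0368 by edgeR), while 5 of the 8 had log2 fold changes below 0, with a median of -0.74 (-0.25 without Cre-negative replicate 3). The T cell genes Cd3g (-1.11) and Cd3e (-0.78) were below in all 3 Cre-positive libraries, as were 13.8% of all tested genes. DESeq2 called 2 of the 8 markers lower and 1 higher, against 1.82% and 3.57% of all tested genes. Ms4a2 was at 0 in 4 libraries. The part of any of these cells in the results below was not tested.

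Of the 10 hair follicle stem cell genes, 0 passed the threshold of an adjusted p of 0.05 by edgeR, where 0.515% of all tested genes did (0.406% higher and 0.110% lower). At an unadjusted p under 0.05, 18.8% of all tested genes passed (10.3% higher and 8.48% lower). DESeq2 called 2 of the 10, Lrig1 and Sox9, both lower, where it called 5.39% of all tested genes (3.57% higher and 1.82% lower). The limma-voom test called 0 of the 10, against 0.425% of all tested genes (0.0902% lower). Without Cre-positive replicate 3 edgeR called 1 of the 10, Lrig1, as lower, against 2.65% of all tested genes (0.841% lower), and without Cre-positive replicate 1 it called 0, against 0.159% (0.0318% lower). The log2 fold change (Cre-positive minus Cre-negative) was below 0 for 9 of 10, against 51.0% of all tested genes. Its median was -0.32 over the 10 and -0.00478 over all tested genes. Without Cre-positive replicate 3 the median over the 10 was -0.20, and leaving out each library in turn left 8 to 10 of the 10 below 0. An unadjusted p under 0.05 was reached by 4, Lrig1, Sox9, Tcf7l1 and Nfatc1, each with the lower mean in Cre-positive cells; 8.48% of all tested genes did so in that direction. For 3 genes, Lrig1, Sox9 and Tcf7l1, every Cre-positive library lay below every Cre-negative one, as for 13.8% of all tested genes. Groups did not overlap in either direction for 28.0% and with higher Cre-positive values for 14.1%. In bulk RNA, fewer cells of a type and less RNA per cell cannot be told apart.

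**Figure D1:**
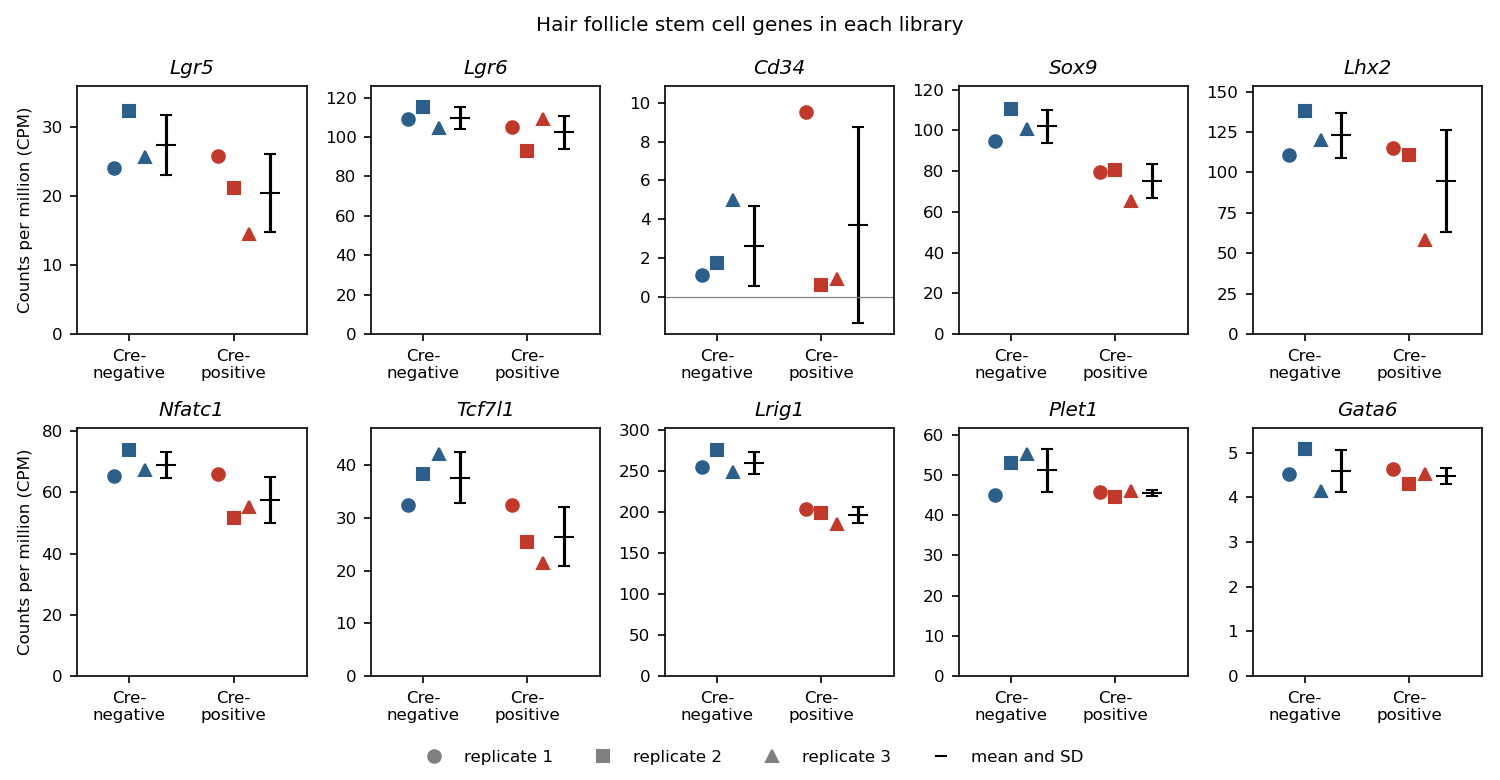
Level of each of the 10 genes in CPM (y axis, linear) in the 3 Cre-negative (blue) and 3 Cre-positive (red) libraries; marker shapes are replicate numbers and black bars are the mean and SD. Lrig1 and Sox9 show a gap between the groups, Cd34 follows 2 single libraries, and Lgr6, Plet1 and Gata6 overlap.

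Lrig1, a transmembrane protein that restrains signalling of the epidermal growth factor receptor, marks the junctional zone. Its gene maps to bases 94604529 to 94700158 of chromosome 6 in the mm10 build used throughout (minus strand, 22 exon blocks). Its level was 204, 199 and 185 CPM in Cre-positive replicates 1, 2 and 3 and 255, 276 and 249 CPM in Cre-negative replicates 1, 2 and 3. All 3 Cre-positive libraries lay below all 3 Cre-negative ones, and the spread within either group was small beside the gap. The mean was 196 ± 9.80 against 260 ± 13.8 CPM (SD, n = 3 each), which is 75.3% of the Cre-negative mean. Its log2 fold change was -0.41 (SE 0.08, 95% interval -0.60 to -0.22), with the smallest adjusted p of the 10 genes (adjusted p = 0.0865 by edgeR). It passed by DESeq2 (adjusted p = 0.000499) and by edgeR without Cre-positive replicate 3 (adjusted p = 0.0462), and over 13 alternatives the adjusted p ran from 0.000499 to 0.339. Exons of Slc25a26, which runs the other way, overlap 2.15% of the exonic bases of Lrig1.

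Plet1, a surface protein of the isthmus and upper follicle, maps to bases 50494525 to 50505639 of chromosome 9 (plus strand, 4 exon blocks). Its level was 45.9, 44.6 and 45.9 CPM in Cre-positive and 45.1, 53.0 and 55.3 CPM in Cre-negative replicates 1, 2 and 3. Cre-negative replicate 1 sat among the Cre-positive libraries and the groups overlapped. Its log2 fold change of -0.17 (SE 0.09, 95% interval -0.38 to 0.04) did not pass (adjusted p = 0.349 by edgeR) and was -0.11 without Cre-negative replicate 3.

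Lgr6, a receptor for R-spondins that strengthens Wnt signalling, maps to bases 134986348 to 135105276 of chromosome 1 (minus strand, 20 exon blocks). It was measured at 105, 92.9 and 109 CPM in Cre-positive and 109, 115 and 105 CPM in Cre-negative libraries. These 6 values are mixed between the groups, and the log2 fold change was -0.10 (SE 0.09, 95% interval -0.30 to 0.10; adjusted p = 0.549 by edgeR), or -0.04 without Cre-positive replicate 2. When libraries were scaled by total count, every Cre-positive library lay below every Cre-negative one. The log2 fold change of Lgr6 was then -0.22, where the median of all tested genes was -0.12.

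Gata6, a zinc finger transcription factor gene of the junctional zone and sebaceous duct, maps to bases 11052510 to 11085635 of chromosome 18 (plus strand, 7 exon blocks). It was low throughout, at 4.64, 4.29 and 4.51 CPM in Cre-positive and 4.53, 5.09 and 4.15 CPM in Cre-negative libraries, from 95 to 151 counts. The groups overlapped fully, with a log2 fold change of -0.03 (SE 0.15, 95% interval -0.38 to 0.31; adjusted p = 0.923 by edgeR) whose sign turned without Cre-negative replicate 2 (0.049).

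Among the bulge transcription factors, Sox9, which keeps outer root sheath cells in their fate, showed a gap between the groups. The gene maps to bases 112782224 to 112787760 of chromosome 11 (plus strand, 3 exon blocks). Its level was 79.6, 80.5 and 65.5 CPM in Cre-positive and 94.7, 111 and 101 CPM in Cre-negative replicates 1, 2 and 3. Every Cre-positive library lay below every Cre-negative one. The mean was 75.2 ± 8.39 against 102 ± 8.0 CPM (SD, n = 3 each), with a log2 fold change of -0.44 (SE 0.10, 95% interval -0.68 to -0.19; adjusted p = 0.119 by edgeR). DESeq2 called it lower (adjusted p = 0.0158), and leaving out single libraries gave -0.49 to -0.35.

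Tcf7l1, a repressor of Wnt target genes in the bulge and formerly called Tcf3, maps to bases 72626378 to 72789254 of chromosome 6 (minus strand, 14 exon blocks). Its level was 32.45, 25.5 and 21.3 CPM in Cre-positive and 32.49, 38.4 and 42.1 CPM in Cre-negative replicates 1, 2 and 3. The highest Cre-positive and the lowest Cre-negative library were almost level, and they overlapped when libraries were scaled by total count. It had the lowest log2 fold change of the 10 genes, -0.51 (SE 0.17, 95% interval -0.90 to -0.11; adjusted p = 0.192 by edgeR). Leaving out Cre-positive replicate 1 gave -0.68 and leaving out replicate 3 gave -0.37.

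Lhx2, a LIM homeodomain factor that maintains bulge cells, maps to bases 38339281 to 38369733 of chromosome 2 (plus strand, 8 exon blocks). Its level was 115, 111 and 58.1 CPM in Cre-positive and 111, 138 and 120 CPM in Cre-negative replicates 1, 2 and 3. Cre-positive replicate 3 was far below the other 5 libraries, while Cre-positive replicates 1 and 2 lay within the Cre-negative range. Its log2 fold change of -0.38 (SE 0.25, 95% interval -0.95 to 0.20; adjusted p = 0.440 by edgeR) became -0.12 without Cre-positive replicate 3.

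Nfatc1, a calcineurin-dependent factor that holds bulge cells in quiescence, maps to bases 80606205 to 80713071 of chromosome 18 (minus strand, 11 exon blocks). Its level was 66.0, 51.6 and 55.4 CPM in Cre-positive and 65.5, 73.9 and 67.5 CPM in Cre-negative replicates 1, 2 and 3. Cre-positive replicate 1 lay just above the lowest Cre-negative library. Its log2 fold change was -0.26 (SE 0.11, 95% interval -0.51 to -0.00906; adjusted p = 0.253 by edgeR).

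Lgr5, a receptor of the same family as Lgr6, maps to bases 115450311 to 115587780 of chromosome 10 (minus strand, 17 exon blocks). Its level was 25.8, 21.2 and 14.4 CPM in Cre-positive and 24.1, 32.4 and 25.7 CPM in Cre-negative replicates 1, 2 and 3. Cre-positive replicate 1 was above 2 of the Cre-negative libraries, and replicate 3 was the lowest of all. The log2 fold change of -0.42 (SE 0.21, 95% interval -0.92 to 0.09; adjusted p = 0.336 by edgeR) became -0.22 without Cre-positive replicate 3 and -0.28 without Cre-negative replicate 2.

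**Figure D2:**
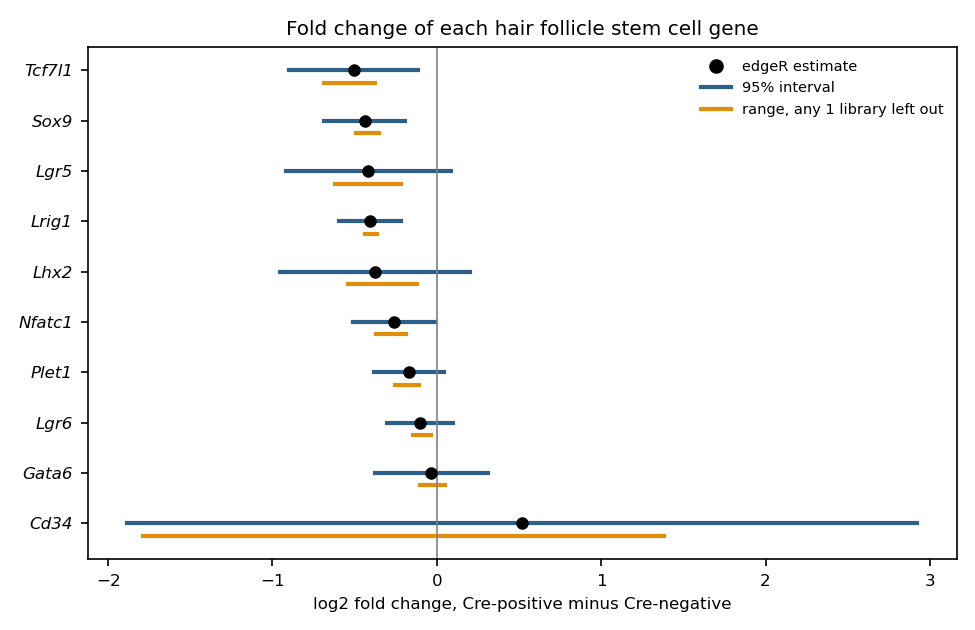
Log2 fold change (x axis, Cre-positive minus Cre-negative) of each gene with its 95% interval (blue) and the range when any 1 library was left out (orange). The intervals of Lrig1, Sox9, Tcf7l1 and Nfatc1 lie below 0, and that of Cd34 spans -1.88 to 2.92.

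Cd34, a sialomucin of bulge cells that endothelial cells, fibroblasts and blood progenitors also carry, maps to bases 194938821 to 194961292 of chromosome 1 (plus strand, 8 exon blocks). Its counts were 310, 14 and 19 in Cre-positive against 28, 43 and 131 in Cre-negative replicates 1, 2 and 3. These correspond to 9.53, 0.62 and 0.90 CPM against 1.12, 1.77 and 4.99 CPM. In each group 1 library was well above the other 2, Cre-positive replicate 1 and Cre-negative replicate 3. The log2 fold change was 0.52 (SE 1.02; adjusted p = 0.812 by edgeR), but -1.79 without Cre-positive replicate 1 (adjusted p = 0.208) and 1.38 without Cre-negative replicate 3.

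The same 2 libraries were high in stromal markers. Of 10 endothelial markers, 9 were tested, and these summed to 33.7, 5.36 and 4.37 CPM in Cre-positive and 5.74, 13.0 and 32.1 CPM in Cre-negative replicates 1, 2 and 3. Cldn5 was at 0 counts in Cre-positive replicate 2 and Emcn in Cre-negative replicate 2. All 12 fibroblast and dermal papilla markers were detected in every library. Col1a1, a collagen gene of fibroblasts chosen after its values were seen, had 397, 12.1 and 21.0 CPM against 17.0, 36.3 and 185 CPM. The collagen genes Col1a2 and Col3a1 were also highest in Cre-positive replicate 1, at 388 and 436 CPM. Not every marker of the list did so. Dcn had 126, 114 and 136 against 100, 110 and 141 CPM, and Fbln1 101, 96.9 and 84.0 against 104, 91.9 and 112 CPM. These genes were likewise chosen after their values were seen. By root mean square difference of centred log2 CPM over the 6 libraries, the genes whose pattern was nearest to Cd34 among 13775 were Cdh11 (0.14), Ctsk (0.16) and Pdlim3 (0.17), where Cd34 itself varied by 1.34 on that scale. The distance from Cd34 to the other 9 stem cell genes was 1.17 or more. Sums of the keratinocyte markers differed by far less between libraries. Krt5 and Krt14 make up most of that sum, which hides its smaller parts: Krt15 had 1034 CPM in Cre-positive against 1957 in Cre-negative cells. The part of stromal RNA in the level of Cd34 was not tested.

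**Figure D3:**
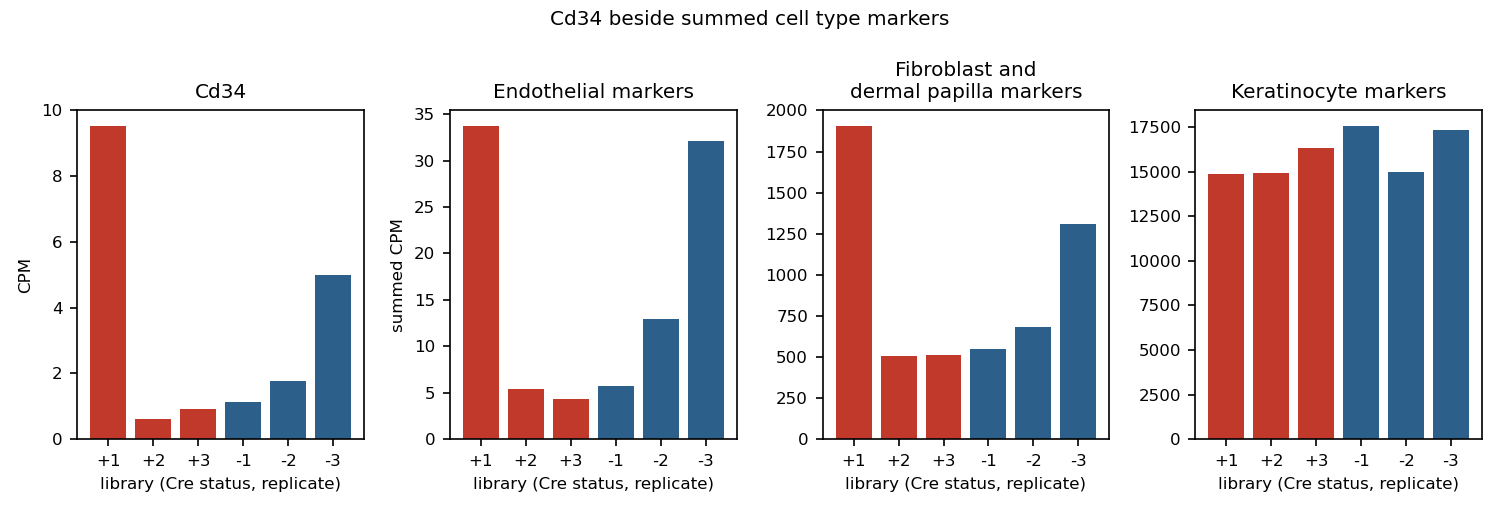
Cd34 in CPM and the summed CPM of endothelial, fibroblast and keratinocyte markers (y axes, linear, from 0) in each library, with + for Cre-positive (red) and - for Cre-negative (blue) and the replicate number. Cd34 and both stromal sums are highest in Cre-positive replicate 1 (9.53, 33.7 and 1906 CPM) and next in Cre-negative replicate 3 (4.99, 32.1 and 1308 CPM), whereas the keratinocyte sum stays between 14866 and 17572 CPM.

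Levels of different genes were compared as TPM, which divide counts by exon length before scaling each library to a fixed total. In Cre-negative cells Lrig1 stood first at 107 ± 8.32 TPM (SD, n = 3) and above the next gene in every library. Lgr6 (66.2 ± 4.78), Lhx2 (64.3 ± 9.11), Plet1 (63.6 ± 7.81) and Sox9 (56.6 ± 6.02) followed, and neighbours among these 4 overlapped. Tcf7l1 (22.0 ± 3.13) and Nfatc1 (21.3 ± 1.94) overlapped with each other and lay below Sox9 in every Cre-negative library. Lgr5 followed at 6.14 ± 1.16, then Gata6 at 3.30 ± 0.414 and Cd34 at 2.30 ± 1.80, the last 2 overlapping. In Cre-positive cells the means ran Lrig1 (75.6), Lgr6 (57.8), Plet1 (52.9), Lhx2 (47.2), Sox9 (39.3), Nfatc1 (16.8), Tcf7l1 (14.7), Lgr5 (4.36), Cd34 (3.23) and Gata6 (3.02). The order depends on the length used: with the longest GENCODE transcript Lgr6 moved from rank 2 to rank 5, at 35.7 TPM, and Lgr5 to 12.4 TPM at an unchanged rank of 8. For Lgr6 that transcript has 6675 bases, but reads were counted over 3804 only, so its 35.7 TPM is not a like-for-like level.

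The 10 genes did not move as 1 block between libraries. Of the 6 libraries, Cre-positive replicate 3 was the lowest for 5 genes and Cre-positive replicate 2 for 4, while Cre-negative replicate 2 was the highest for 7. Against the Cre-negative mean of log2 CPM, Cre-positive replicate 3 lay at -0.91 for Lgr5 and -1.07 for Lhx2, but at -0.01 for Lgr6 and -0.02 for Gata6. Lrig1 was at -0.35 in Cre-positive replicate 1, -0.39 in replicate 2 and -0.49 in replicate 3, and Plet1 varied less still, from -0.19 to -0.15. The nearest pairs were Sox9 with Lrig1 (root mean square difference 0.07), Lgr6 with Gata6 (0.07) and Lgr5 with Lhx2 (0.12). These distances are descriptions over 6 libraries that share their scaling.

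**Figure D4:**
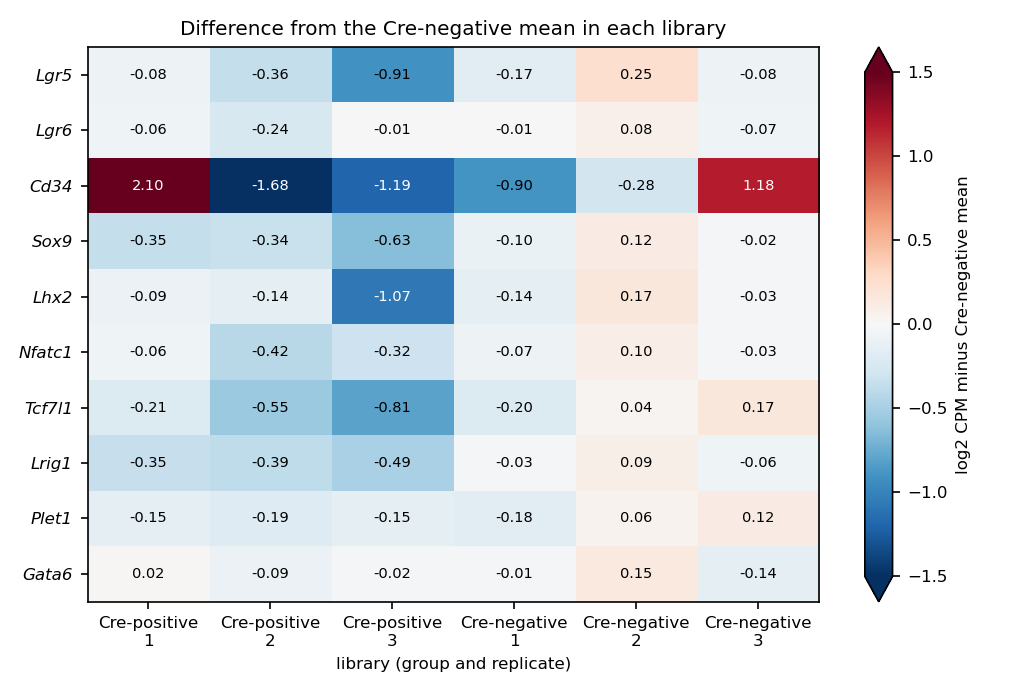
Log2 CPM of each gene (rows) in each library (columns) minus the mean of the Cre-negative libraries; blue is lower, red is higher, and the value is printed in each cell. Lrig1 and Sox9 lie at -0.34 or below in all 3 Cre-positive libraries, Lgr5 and Lhx2 are lowest in replicate 3, and Cd34 takes both signs within each group.

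Sexes were compared separately, with 2 Cre-positive against 1 Cre-negative library in males and 1 against 2 in females, and no test was run within a sex. The difference for Lrig1 was -0.45 in both males and females on the log2 scale. For Sox9 it was -0.47 in males and -0.58 in females, and for Tcf7l1 -0.41 and -0.79. Lgr5 had -0.47 and -0.78 and Lhx2 -0.29 and -0.99, the female value of each resting on Cre-positive replicate 3 alone. Cd34 had opposite signs, 0.49 and -1.33. With sex as a covariate 0 of the 10 passed by edgeR, against 0.271% of all tested genes (0.0515% lower), and Sox9 (adjusted p = 0.0636), Lrig1 (0.0770) and Lgr5 (0.0945) came nearest.

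Ratios of counts within a library do not depend on the scaling, and those given here were chosen after the values were seen. Lrig1 over Lgr6 was 1.94, 2.14 and 1.7 in Cre-positive against 2.34, 2.39 and 2.38 in Cre-negative replicates 1, 2 and 3. Sox9 over Lgr6 was 0.757, 0.867 and 0.601 against 0.869, 0.958 and 0.962. Neither ratio overlapped between the groups, although Sox9 came close. Tcf7l1 over Lgr6 did overlap, at 0.309, 0.274 and 0.196 against 0.298, 0.332 and 0.402. So did Lgr5 over Lgr6, at 0.245, 0.228 and 0.132 against 0.222, 0.281 and 0.246. How often such ratios separate the groups over all genes was not measured.

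The genes nearest in pattern were also listed for 3 further members, by the same distance. For Lgr5 they were Fam71e1 (0.05), Pdzrn3 (0.05) and the hair matrix factor gene Hoxc13 (0.06). For Lrig1 they were Hdac5 (0.02), Cx3cl1 (0.02) and Mettl8 (0.03), and for Plet1 Paics (0.02), Alkbh2 (0.03) and Ctdsp1 (0.03). On that scale Lgr5 itself varied by 0.36, Lrig1 by 0.21 and Plet1 by 0.12. With 13775 genes compared over 6 libraries, patterns this close can arise without a shared role.

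Other genes of the bulge and hair germ did not share 1 direction. Of 20 listed, 19 were tested and 0 passed by edgeR, with 1 higher and 3 lower at an unadjusted p under 0.05, 1 lower by DESeq2 and 0 by limma-voom. Of all tested genes, 10.3% were higher and 8.48% lower at that unadjusted p, and 1.82% were lower by DESeq2. The log2 fold change was below 0 for 9 of 19, with a median of 0.09. That median was -0.03, -0.03 and -0.01 without Cre-positive replicate 1, 2 or 3 in turn, and -0.02 with sex as a covariate. Krt15, a keratin gene of the bulge and the basal layer, was 926, 941 and 1236 CPM in Cre-positive and 2193, 1764 and 1915 CPM in Cre-negative replicates 1, 2 and 3. The groups were far apart, with a log2 fold change of -0.92 (SE 0.15; adjusted p = 0.0572 by edgeR). Krt15 was the gene that DESeq2 called (adjusted p = 6.65e-07), and it passed in 5 of 13 alternatives, among them sex as a covariate (adjusted p = 0.0428) and without Cre-positive replicate 3 (adjusted p = 0.00427). Over Krt14, the keratin gene of all basal cells, its counts stood at 0.175 to 0.211 in Cre-positive and 0.335 to 0.402 in Cre-negative libraries. That ratio too was chosen after the values were seen. How often ratios over Krt14 separate the groups over all genes was not measured. Postn, a matrix protein gene, had -0.85 (adjusted p = 0.237 by edgeR), and -0.54 without Cre-positive replicate 3. Hopx, a homeodomain gene of bulge and suprabasal cells, had 1.25 (adjusted p = 0.226 by edgeR), with 570 CPM in Cre-positive replicate 3 and between 116 and 178 elsewhere. Without that library Hopx had 0.41.

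In the upper follicle and sebaceous duct list, 0 of 14 passed by edgeR and by limma-voom, with 3 higher and 4 lower at an unadjusted p under 0.05 and 1 higher and 2 lower by DESeq2. By these 2 measures, 10.3% and 3.57% of all tested genes were higher and 8.48% and 1.82% lower. The median of the list was -0.07, and its sign turned without Cre-positive replicate 2 (0.07). Krt17, a keratin gene of the outer root sheath and of wounded epidermis, had 788 ± 191 against 1242 ± 47.1 CPM (log2 fold change -0.66, SE 0.18, adjusted p = 0.149 by edgeR). Scd1, a desaturase gene of sebocytes, had -0.61 (adjusted p = 0.175 by edgeR).

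Among the genes that act with the stem cell receptors, 0 of 11 tested members of the LGR and R-spondin list passed by edgeR, DESeq2 or limma-voom, with 1 higher and 2 lower at an unadjusted p under 0.05. At that unadjusted p, 10.3% of all tested genes were higher and 8.48% lower. The median of the list was -0.13, and -0.05 without Cre-negative replicate 2. Fzd10, the Wnt receptor gene with the highest CPM in the list, had -0.06, Fzd6 had 0.29 and Fzd7 had -0.53 (-0.35 without Cre-positive replicate 3). Rnf43, a ubiquitin ligase gene that removes Wnt receptors and that LGR proteins hold back, had -0.23 (adjusted p = 0.198 by edgeR). Lgr4, the broadly expressed relative of Lgr5 and Lgr6 and named outside the rule, had -0.13 (SE 0.10). The R-spondin genes Rspo2 and Rspo4 were below the count filter, with at most 11 and 3 counts.

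In a list of LRIG family, ERBB receptor and ligand genes with Errfi1 and Myc, 0 of 9 passed by edgeR, DESeq2 or limma-voom. The median was 0.20 (0.08 without Cre-positive replicate 3 and 0.07 without Cre-negative replicate 1). At an unadjusted p under 0.05, 1 was higher, Myc, and 0 were lower. Over all tested genes, 10.3% were higher and 8.48% lower at that unadjusted p. Lrig2 and Lrig3, relatives of Lrig1 named outside the rule, had -0.01 (SE 0.10) and 0.00114 (SE 0.07). The differences for these 2 genes were smaller than their SE, where that for Lrig1 was several times its SE. Erbb3, a receptor gene, had 0.21, and its sign turned without Cre-positive replicate 3 (-0.02). Myc, a growth factor-induced transcription factor gene, had 0.48, the receptor inhibitor gene Errfi1 0.63 and the ligand gene Btc 0.35. Without Cre-positive replicate 3 the values were 0.25 for Myc, 0.22 for Errfi1 and 0.18 for Btc.

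Partners and inhibitors of TCF7L1 differed little, with 0 of 12 past the threshold by edgeR, DESeq2 or limma-voom, 0 at an unadjusted p under 0.05 and a median of -0.06 (-0.01 without Cre-positive replicate 2 or 3). Ctnnb1, which encodes beta-catenin, had -0.07, the related factor genes Lef1 and Tcf7l2 -0.21 and -0.14, and the corepressor gene Ctbp1 -0.13. Lef1 had -0.07 and Tcf7l2 -0.08 without Cre-positive replicate 3. In the list around NFATC1 and quiescence, 0 of 16 passed by edgeR and limma-voom, with 2 higher and 3 lower at an unadjusted p under 0.05 and 1 in each direction by DESeq2. At that unadjusted p, 10.3% of all tested genes were higher and 8.48% lower, against 3.57% and 1.82% by DESeq2. The median of the NFATC1 list was -0.05, and from -0.14 to -0.01 when single libraries were left out. Id3, a target gene of BMP signalling, had 21.5 ± 2.04 against 33.2 ± 5.52 CPM (log2 fold change -0.62, adjusted p = 0.101 by edgeR). Ppp3ca, a calcineurin subunit gene, had 0.41, Nfatc2 had 0.30 and the cell cycle kinase gene Cdk4 -0.34 (-0.21 without Cre-positive replicate 3). The other calcineurin subunit genes in the list, Ppp3cb and Ppp3r1, named outside the rule, had -0.13 and 0.11.

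Hair matrix genes all had log2 fold changes below 0, in 12 of 12 tested, with a median of -0.53. Without Cre-negative replicate 2 the median was -0.28, with 11 of 12 below 0, and without Cre-positive replicate 3 it was -0.34. By edgeR and limma-voom 0 passed, 5 were lower at an unadjusted p under 0.05 and 2 were lower by DESeq2, where 8.48% and 1.82% of all tested genes were lower by these measures. Krt35, Krt71 and Krt27, keratin genes of the hair shaft and inner root sheath, had -0.77, -0.65 and -0.57 (adjusted p = 0.175, 0.182 and 0.218 by edgeR), and Tchh, the trichohyalin gene, had -0.35. Cre-negative replicate 2 was the highest library for each of these 4 genes, at 641 CPM for Krt71 against 395 in both other Cre-negative libraries. Without it the values were -0.46 for Krt35, -0.38 for Krt71, -0.28 for Krt27 and -0.15 for Tchh. As a mean over the list, log2 CPM minus the Cre-negative level came to -0.22 in Cre-positive replicate 1, -0.52 in replicate 2 and -0.71 in replicate 3, where single Cre-negative libraries ran from -0.19 to 0.30.

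Genes listed for the epidermis between follicles had log2 fold changes mostly above 0, in 10 of 12 basal and 10 of 11 suprabasal genes tested. For the basal genes this rested on Cre-positive replicate 3, without which 6 of 12 were below 0 with a median of -0.01. The suprabasal median was 0.24 without that library, with 10 of 11 above 0. The basal list is not particular to this epidermis, since follicle cells also carry genes in it, such as Krt14 and Itga6, which encodes CD49f. In the interfollicular basal list 0 of 12 passed by edgeR and limma-voom, and the median was 0.15. At an unadjusted p under 0.05, 3 were higher, Krt16, Itgb4 and Sfn, and 0 were lower. DESeq2 called 2 higher, Krt16 and Itgb4. These counts do not show a rise of basal genes as a set. Krt16, a keratin gene of wounded and growing epidermis, had 981 ± 77.7 against 449 ± 130 CPM (log2 fold change 1.13, SE 0.20, adjusted p = 0.0755 by edgeR), and Itgb4, the partner chain of CD49f, 0.50 (adjusted p = 0.0865 by edgeR). Krt5, with the highest CPM, had -0.10 and Sfn 0.48 (0.28 without Cre-positive replicate 3). Of 11 suprabasal genes tested, 0 passed by edgeR and limma-voom, 7 were higher at an unadjusted p under 0.05, 3 were higher by DESeq2, and the median was 0.37. By these measures, 10.3% and 3.57% of all tested genes were higher. Dsc1, a desmosome gene, had 0.84, Dsg1a 0.30, the cornified envelope gene Ivl 0.91 (0.43 without Cre-positive replicate 3) and Krt10 0.37. As a mean over the list, log2 CPM exceeded the Cre-negative level by 0.63 in Cre-positive replicate 3, the library lowest in Lgr5 and Lhx2, and by 0.15 and 0.31 in replicates 1 and 2. The part of the mix of follicular and epidermal cells in the values of the stem cell genes was not tested.

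**Figure D5:**
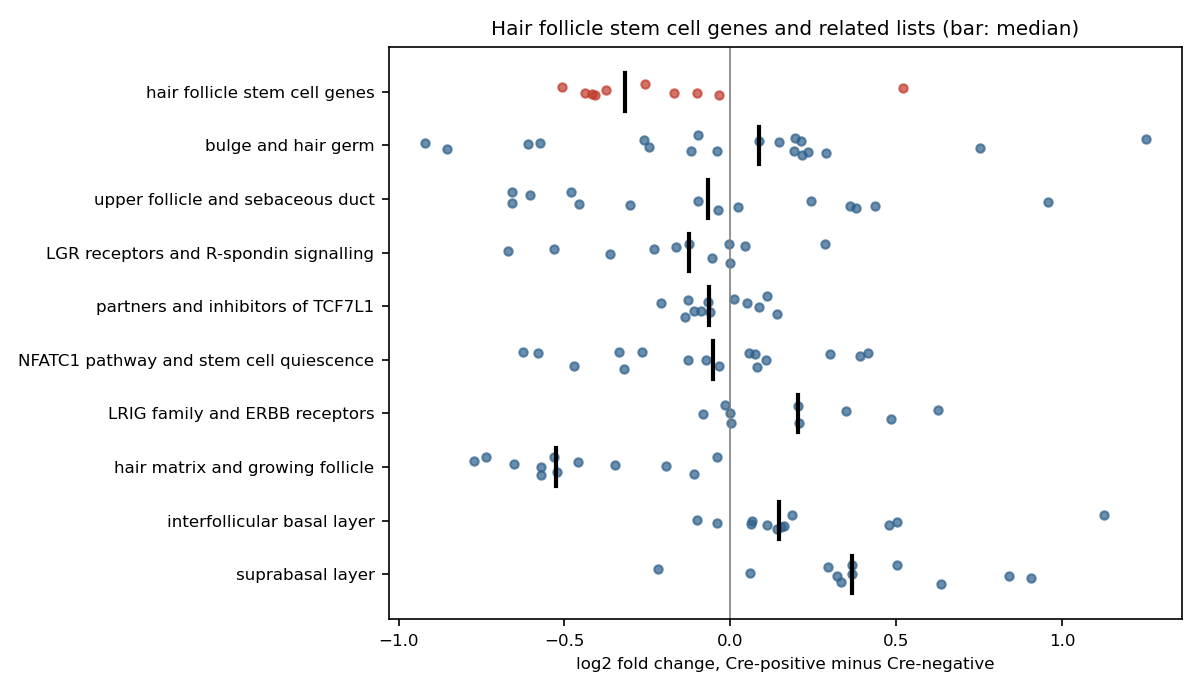
Log2 fold change (x axis) of each tested gene in the hair follicle stem cell set (red) and in 9 related lists (blue); black bars are medians and vertical scatter within a row carries no value. The medians are -0.32 for the stem cell genes, -0.53 for hair matrix genes and 0.37 for suprabasal genes.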

How the data were processed

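The deposited table holds whole-number counts of reads for each gene in 6 libraries, not normalized, with summed exon lengths, per the file headers. GSNAP served for alignment and featureCounts for counting on mm10, per the submitters' processing notes. The library kit marks strand, per the labels' protocols. For versions, the strand setting and shared reads, what was used is not given in the sources used here. If strand was not used in counting, reads of overlapping genes on opposite strands cannot be told apart. None of the 10 genes has a partner with a mean of at least 10 counts over 5% or more of its exon length.

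Groups came from the labels, and replicates were numbered 1 to 3 within a group. Nothing in the labels says that they are separate animals, so p-values measure the spread between these samples, which may be technical. Identifiers were matched to symbols for 37607 of 38924 genes. Genes were kept by filterByExpr (minimum count 10), scaled by TMM (trimmed mean of M values), and all 15525 were tested with edgeR 4.0.16 (quasi-likelihood, two-sided, R 4.3.3), with no covariate and with p adjusted by Benjamini and Hochberg. CPM use the scaled totals, and a floor of 3 counts corresponds to 0.0922 to 0.143 CPM, for counting error only. Pattern distances use log2 CPM with a prior count of 2. Exon blocks and coordinates come from the deposited table, and TPM use its exon lengths.

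Alternatives were DESeq2 size factors, total count scaling, DESeq2 1.42.0, limma-voom (limma 3.58.1), other count filters, sex as a covariate and leaving out each library. The genes and lists were chosen with earlier results of these data known. Named in the text are the 10 genes, Rnaseh2b, the member with the highest CPM and up to 3 smallest-p members of each list, and the 3 nearest patterns of Lgr5, Cd34, Lrig1 and Plet1. Any other gene is marked in the text. A gene that the rule would name is not reported here. Marker lists for other cell types are given as sums. The scripts were tested on simulated data. No library was present more than once within a group, since pairs within a group differed beyond sampling noise. Pairs across the groups were not compared in this way.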

Additional observations from a re-analysis of the deposited data

How the results depend on the processing

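The log2 fold change kept its sign in all 13 alternatives for 8 of the 10 genes, Cd34 and Gata6 being the exceptions. Cd34 had a log2 fold change of -0.063 in limma-voom. When any 1 library was left out, Cd34 ran from -1.79 to 1.38, Gata6 from -0.10 to 0.049 (without Cre-negative replicate 2), Lrig1 from -0.44 to -0.36, Fzd10 from -0.090 to 0.00216 and Erbb3 from -0.024 to 0.33. DESeq2 called 2 of the 10 lower, Sox9 at -0.43 and Lrig1 at -0.40, and leave-one-out fits called 0 to 1 lower. Over the 9 related lists, DESeq2 called 7 higher and 6 lower, and leave-one-out fits 0 to 4 higher and 0 to 2 lower. No filter beyond 1 count gave 1 higher and 1 lower there, and total count scaling and sex as a covariate 1 lower each, against 0 and 0.

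Over all genes, 63 were higher and 17 lower by edgeR. Total count scaling gave 27 higher, DESeq2 554 higher and 283 lower, no filter beyond 1 count 104 and 38, and sex as a covariate 34 and 8. Leave-one-out fits gave 0 (without Cre-negative replicate 1 or 2) to 288 higher and 0 to 134 lower (without Cre-positive replicate 3); leaving out 1 library leaves 2 in its group, which the other group's spread then helps to judge. Total count scaling moved the median of all genes to -0.12, and that of the 10 genes to -0.42. With the longest transcript as length, the Cre-negative level was 35.7 TPM for Lgr6, 94.1 for Lhx2, 26.9 for Tcf7l1, 31.2 for Nfatc1, 12.4 for Lgr5 and 2.64 for Gata6. For Lgr6 and Gata6 that length exceeds the exon bases over which reads were counted, which lowers their values. No paired analysis was possible because the labels give no replicate numbers shared between the groups. Cd34 was the least certain of the 10 genes, with 14 to 310 counts and an SE of 1.02. Gata6, at 95 to 151 counts, had an SE of 0.15.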
